A study of Mus musculus with 6 samples.

Results

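The SR and hnRNP genes are the families of RNA-binding proteins that, beside the spliceosome itself, decide which exons a transcript keeps. They were taken here as every gene whose symbol begins with Srsf or Hnrnp and that the platform annotation assigns to a probe set of its own, whatever its change. That gave 29 of the 18193 named genes, 10 Srsf and 19 Hnrnp, with 91 probe sets. Each gene was represented by the probe set chosen by its mean signal over the 6 arrays, the brightest one, and the other probe sets were used to see whether they changed alike. Of the 29 genes, 28 passed the filter on dim probe sets, with mean log2 signals between 10.20 and 14.02. The exception was Srsf12. Srsf7 and Hnrnpa3 are not analysed here, because no probe set carried either symbol alone.

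The cells were c-Kit+Sca-1+Lin- cells (KSL), a surface phenotype that includes blood stem and early progenitor cells, from C57BL/6J mouse bone marrow. They had grown for 7 days on HUVECs, human endothelial cells from the umbilical vein, in medium without serum that held 5 types of mouse cytokines (m5GF), and KSL cells were then sorted again for RNA. There were 3 arrays of cells grown with mD1R and 3 of cells grown with PBS, all labelled as biological replicates, so both groups shared the feeder layer and the cytokines. The labels do not expand mD1R, which the study describes as a recombinant fusion of the receptor-binding part of mouse Delta-like 1, a Notch ligand, with a motif that binds endothelium. The comparison asks which transcripts differed with this ligand protein in cells sorted again as KSL.

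SR proteins carry RNA recognition motifs and a tail rich in arginine and serine. They bind exonic enhancer sequences, help U1 and U2 snRNPs (small nuclear ribonucleoproteins) to recognise splice sites, and move in and out of nuclear speckles as kinases phosphorylate the tail. hnRNPs coat nascent transcripts, often silence exons that SR proteins would favour, and several of them also act in transport, translation and decay of mRNA. In blood-forming cells these families are best known from human disease, since SRSF2 and other splicing genes are recurrently mutated in myelodysplastic syndromes.

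Promoter windows are shown for the 4 genes that passed the test as lower with mD1R (Srsf3, Hnrnpa2b1, Hnrnpd and Hnrnpm) and for Hnrnpc, the only tested gene of the families whose estimate lay above 0. Each window holds 250 bases before and 50 bases after an annotated start, 5′ to 3′, from RefSeq on GRCm38.p6. For Hnrnpa2b1, which has 2 starts in that table, the first is given. Capitals mark matches, on either strand, to any of 7 motifs known by name: YY1 (GCCATNTT), the TATA box (TATAAA), the CCAAT box (CCAAT), the GC box (GGGCGG), the core of the CREB site (TGACGT), the E-box (CACGTG) and ETS (CCGGAAG). In the windows printed, no matches overlapped each other.
Srsf3, chr17:29032410-29032709, plus strand: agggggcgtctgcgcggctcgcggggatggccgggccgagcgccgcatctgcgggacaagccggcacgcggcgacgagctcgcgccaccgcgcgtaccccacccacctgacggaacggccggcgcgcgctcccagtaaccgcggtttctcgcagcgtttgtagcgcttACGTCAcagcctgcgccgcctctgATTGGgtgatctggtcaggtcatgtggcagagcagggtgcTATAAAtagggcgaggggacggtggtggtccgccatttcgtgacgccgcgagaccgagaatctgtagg
Hnrnpa2b1, chr6:51469845-51470144, minus strand: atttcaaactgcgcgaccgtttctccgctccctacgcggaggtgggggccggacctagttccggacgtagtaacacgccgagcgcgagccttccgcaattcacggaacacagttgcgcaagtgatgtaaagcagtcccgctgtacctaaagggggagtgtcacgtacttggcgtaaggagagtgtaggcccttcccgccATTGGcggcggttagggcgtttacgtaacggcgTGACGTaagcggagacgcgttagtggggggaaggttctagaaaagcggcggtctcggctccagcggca
Hnrnpd, chr5:99978889-99979188, minus strand: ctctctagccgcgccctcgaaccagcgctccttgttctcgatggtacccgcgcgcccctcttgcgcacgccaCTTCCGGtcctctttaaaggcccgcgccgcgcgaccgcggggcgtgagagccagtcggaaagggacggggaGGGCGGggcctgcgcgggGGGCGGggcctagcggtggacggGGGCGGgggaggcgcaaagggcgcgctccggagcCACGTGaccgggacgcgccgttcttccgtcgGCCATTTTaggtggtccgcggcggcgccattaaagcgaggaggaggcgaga
Hnrnpm, chr17:33685409-33685708, minus strand: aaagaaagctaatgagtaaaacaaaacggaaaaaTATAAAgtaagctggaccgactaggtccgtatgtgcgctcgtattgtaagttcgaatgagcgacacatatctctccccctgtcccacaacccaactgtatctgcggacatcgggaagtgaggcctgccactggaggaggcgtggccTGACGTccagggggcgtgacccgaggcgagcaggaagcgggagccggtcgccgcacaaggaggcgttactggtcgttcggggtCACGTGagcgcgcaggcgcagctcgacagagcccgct
Hnrnpc, chr14:52103972-52104271, minus strand: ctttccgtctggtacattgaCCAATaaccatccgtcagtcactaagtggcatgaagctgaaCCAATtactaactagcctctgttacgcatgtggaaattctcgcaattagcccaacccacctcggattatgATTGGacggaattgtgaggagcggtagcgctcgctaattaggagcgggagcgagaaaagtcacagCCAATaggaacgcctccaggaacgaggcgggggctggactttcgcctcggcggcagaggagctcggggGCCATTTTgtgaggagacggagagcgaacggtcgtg

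Promoters were found for 27 of the 29 genes, all but Hnrnpll and Hnrnpul2. The 27 include Srsf12, which was not tested. A gene was counted for a motif if the window of any of its annotated starts held a match. GC boxes occurred in 22 of these 27 genes (81.5%), against 66.4% of the 9989 tested genes with a promoter in the table, and CCAAT boxes in 16 (59.3%), against 42.5%. The CREB core occurred in 7 (25.9%), against 13.1%, and was present in Srsf3, Hnrnpa2b1 and Hnrnpm but not in Hnrnpd. TATA boxes occurred in 14.8%, against 9.19%, YY1 matches in 14.8%, against 9.84%, E-boxes in 14.8%, against 11.5%, and ETS matches in 18.5%, against 19.6%. Hnrnpd held YY1, GC box, E-box and ETS matches, and Hnrnpc held a YY1 match and 4 CCAAT boxes. These are letter matches, and no binding was measured.

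With mD1R, 4 of the 28 tested genes fell past adjusted p 0.05 and 0 rose. Over all 12320 genes tested, 7.09% fell and 8.49% rose. The estimate lay below 0 in 27 of 28 genes, against 44.5% of all genes, and the median log2 change was -0.43, against 0.09 over all genes. All 3 mD1R arrays lay below all 3 PBS arrays in 17 of the 28 genes, against 18.1% of all genes. Among the 3835 genes at least as bright as the dimmest tested gene of the families, 9.13% fell and the median change was 0.02. At an unadjusted p of 0.05, 13 of the 28 were lower and 0 higher. In the bulk RNA measured here, fewer cells that express a gene and less RNA per cell cannot be told apart.

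Srsf3 encodes the smallest of the classical SR proteins, which also promotes mRNA export. Its log2 signals were 12.48, 12.17 and 12.29 in mD1R replicates 1, 2 and 3, against 13.51, 13.28 and 13.37 in PBS replicates 1, 2 and 3. The groups were separated by a gap wider than the range within either. Srsf3 fell by 1.07 ± 0.17 (log2, SE; n = 3 per group), or 2.11-fold, with an adjusted p of 0.0122 in limma.

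Hnrnpa2b1 encodes a protein of the A/B class that binds RNA in splicing and in RNA sorting. It had log2 signals of 13.12, 12.82 and 13.02 with mD1R and of 14.05, 13.75 and 13.83 with PBS. Every mD1R array lay below every PBS array. It fell by 0.89 ± 0.17 (log2, SE; adjusted p = 0.0198).

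Hnrnpd encodes AUF1, known for binding AU-rich elements and directing the decay of the mRNAs that hold them. Its log2 signals were 12.08, 12.29 and 12.79 with mD1R and 13.31, 13.35 and 13.38 with PBS. The groups did not overlap, and the mD1R arrays were spread more widely than the PBS arrays, with replicate 3 the highest of them. Hnrnpd fell by 0.96 ± 0.21 (adjusted p = 0.0266).

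Hnrnpm, an RNA-binding regulator of alternative exons, gave log2 signals of 11.42, 11.07 and 11.32 with mD1R and of 11.98, 11.91 and 11.81 with PBS. It also showed no overlap between groups, with a smaller change than the others that passed. It fell by 0.63 ± 0.17 (adjusted p = 0.0481), the nearest of these calls to the threshold.

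**Figure D1:**
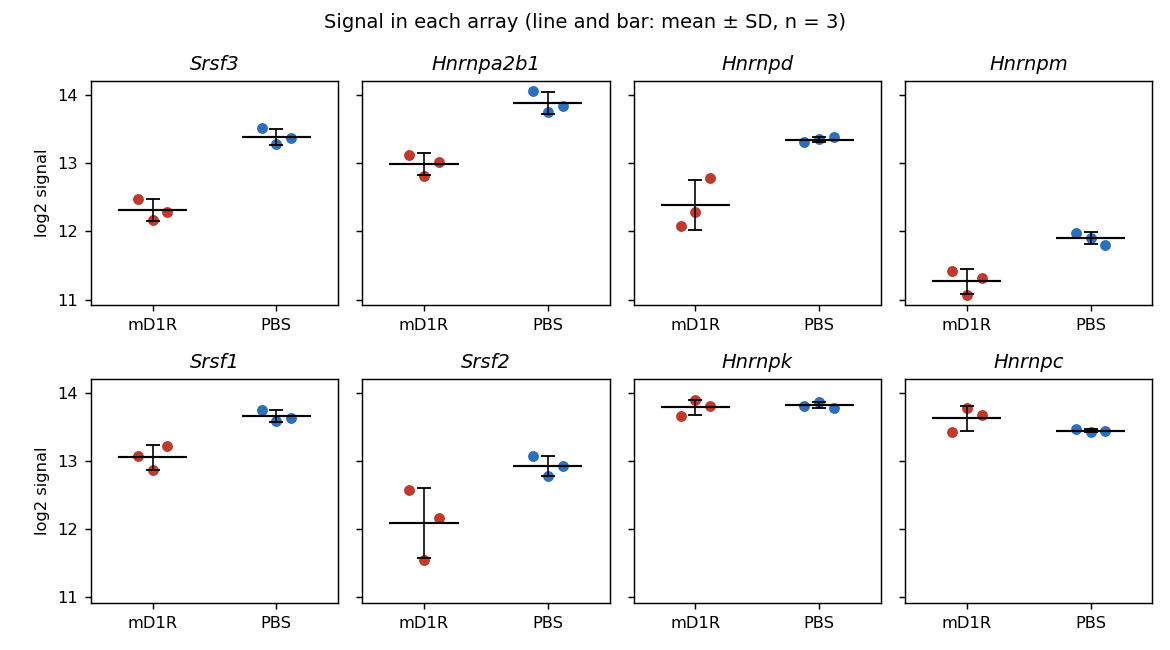
Log2 signal (y axis) of 8 genes in each mD1R array (red, left) and PBS array (blue, right), with the mean and SD of 3 arrays. Srsf3, Hnrnpa2b1, Hnrnpd and Hnrnpm passed the test, Srsf1 and Srsf2 did not although their groups do not overlap, and in Hnrnpk and Hnrnpc the groups overlap.

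The number of calls moved with single arrays, over all genes as well as in the families. In limma fits that omitted mD1R replicate 1, 2 or 3, the number of lower genes among the 28 was 4, 1 or 8, while 4.66%, 1.69% or 11.6% of all genes were lower. Fits that omitted PBS replicate 1, 2 or 3 gave 1, 0 or 0 of the 28, and 2.45%, 0.988% or 0% of all genes. At an unadjusted p of 0.05 the lower genes numbered 10, 10 and 11 without PBS replicates 1, 2 and 3. Srsf3 lost its call without PBS replicate 2 (log2 change -1.13, adjusted p = 0.0515) and without PBS replicate 3 (-1.08, 0.0677). Without PBS replicates 1, 2 and 3 and mD1R replicate 2, Hnrnpa2b1 had changes of -0.80, -0.95, -0.91 and -0.80 (adjusted p = 0.0583, 0.0689, 0.0910 and 0.0718). Under the same omissions Hnrnpd had -0.98, -0.96, -0.94 and -0.91 (adjusted p = 0.0682, 0.0982, 0.111 and 0.0909) and Hnrnpm -0.59, -0.62, -0.68 and -0.53 (adjusted p = 0.113, 0.162, 0.144 and 0.141). Hnrnpm also lost its call without mD1R replicate 1, where its change was -0.71 (adjusted p = 0.0516). The counts therefore moved far more than the sizes of these changes.

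Among the SR genes, all 9 tested had an estimate below 0, against 44.5% of all genes, with a median of -0.58. Srsf3 was the only one past the threshold (11.1%, against 7.09% of all genes). Srsf1 encodes the enhancer-binding factor also known as ASF or SF2. It had log2 signals of 13.07, 12.86 and 13.22 with mD1R and of 13.75, 13.58 and 13.63 with PBS. The groups did not overlap, yet the difference of -0.60 ± 0.17 missed the threshold (adjusted p = 0.0548). Srsf1 did pass without mD1R replicate 3, where its change was -0.69 (adjusted p = 0.0357).

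Srsf2 encodes SC35, a classical marker protein of nuclear speckles. Its brightest probe set gave 12.57, 11.55 and 12.16 with mD1R and 13.07, 12.78 and 12.92 with PBS. All mD1R arrays were below the PBS arrays, with replicate 2 lowest, and the difference of -0.83 ± 0.26 did not pass (adjusted p = 0.0768). Without mD1R replicate 1 or mD1R replicate 3 another Srsf2 probe set became the brightest, and it passed with changes of -1.14 (adjusted p = 0.0291) and -1.51 (adjusted p = 0.00959).

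Srsf4, which has a long arginine- and serine-rich tail, differed by -0.77 ± 0.23 and Srsf6 by -0.58 ± 0.20 (adjusted p = 0.0616 and 0.0891), in both cases without overlap between the groups. Srsf4 had log2 signals of 10.91, 10.90 and 11.62 with mD1R and of 11.97, 11.87 and 11.90 with PBS, so that mD1R replicate 3 lay closest to the PBS arrays. Srsf5 had 12.58, 13.65 and 13.51 with mD1R and 13.49, 13.74 and 13.92 with PBS, where the groups overlapped and mD1R replicate 1 stood lowest. Srsf11 (-0.33 ± 0.17), Srsf9 (-0.24 ± 0.17), and Srsf10 (-0.16 ± 0.21), whose protein represses splicing when it loses its phosphates, did not pass either. Srsf12 had log2 signals of 1.05, 4.27 and 3.86 with mD1R and of 1.82, 1.03 and a listed 0 with PBS, all at the low end of the scale, so no fold is given.

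**Figure D2:**
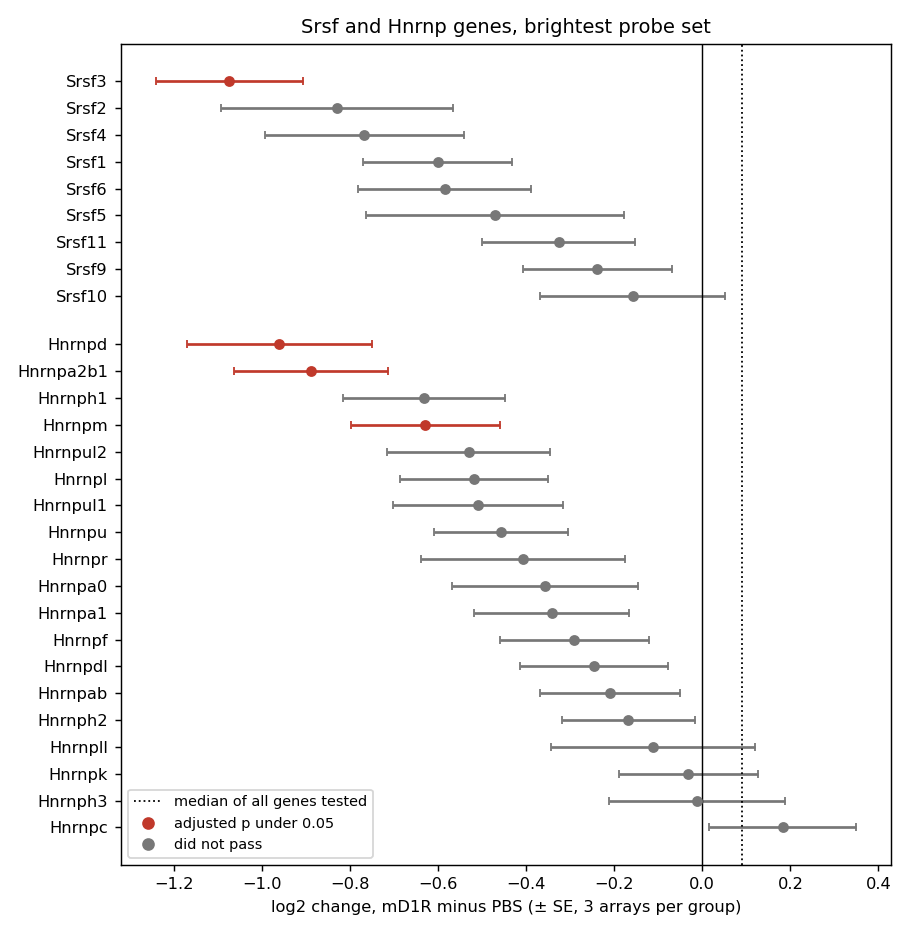
Log2 change of the brightest probe set, mD1R minus PBS (x axis, with SE), for the 9 tested Srsf genes (top) and the 19 Hnrnp genes (bottom), in order of size within each family. Only Hnrnpc has an estimate above 0, and the 4 red genes passed the test.

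The 19 hnRNP genes had a median change of -0.36. Of them 3 fell past the threshold (15.8%, against 7.09% of all genes), and 18 estimates lay below 0 (94.7%, against 44.5%). Hnrnph1 and Hnrnpf encode proteins that bind runs of G. Hnrnph1 had log2 signals of 12.82, 12.46 and 12.87 with mD1R and of 13.51, 13.21 and 13.33 with PBS. Its groups did not overlap, but the difference of -0.63 ± 0.18 did not pass (adjusted p = 0.0596), and Hnrnpf differed by -0.29 ± 0.17. The related Hnrnph2 and Hnrnph3 differed by -0.17 ± 0.15 and -0.01 ± 0.20.

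Hnrnpu, the scaffold attachment factor that binds both chromatin and RNA, had log2 signals of 13.01, 12.89 and 12.97 with mD1R and of 13.47, 13.36 and 13.42 with PBS. Both groups were tight and did not overlap, although the difference of -0.46 ± 0.15 did not pass (adjusted p = 0.0868). Its relatives Hnrnpul1 (-0.51 ± 0.19) and Hnrnpul2 (-0.53 ± 0.19) did not pass with their brightest probe sets. Hnrnpl, which binds CA repeats, differed by -0.52 ± 0.17 (adjusted p = 0.0815), and its paralogue Hnrnpll, known for the exclusion of variable exons of the leukocyte antigen gene Ptprc in T cells, by -0.11 ± 0.23.

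Hnrnpa1, the best studied splicing silencer of the family, had log2 signals of 11.61, 11.82 and 11.60 with mD1R and of 12.23, 11.84 and 11.97 with PBS. The lowest PBS array and the highest mD1R array nearly met, and the difference of -0.34 ± 0.18 did not pass (adjusted p = 0.235). Hnrnpa0 (-0.36 ± 0.21), Hnrnpr (-0.41 ± 0.23), Hnrnpdl (-0.25 ± 0.17) and Hnrnpab (-0.21 ± 0.16) did not pass either.

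Hnrnpk, which binds poly(C) through KH domains, had log2 signals of 13.66, 13.89 and 13.81 with mD1R and of 13.81, 13.86 and 13.78 with PBS. The arrays of both groups interleaved, with a difference of -0.03 ± 0.16 that changed sign without mD1R replicate 1 (0.03). Hnrnpc, which binds U tracts on nascent RNA, had 13.42, 13.77 and 13.68 with mD1R and 13.46, 13.42 and 13.43 with PBS. In Hnrnpc mD1R replicate 1 lay below all PBS arrays and the other mD1R arrays above them, and the difference of 0.18 ± 0.17 did not pass (adjusted p = 0.507).

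**Figure D3:**
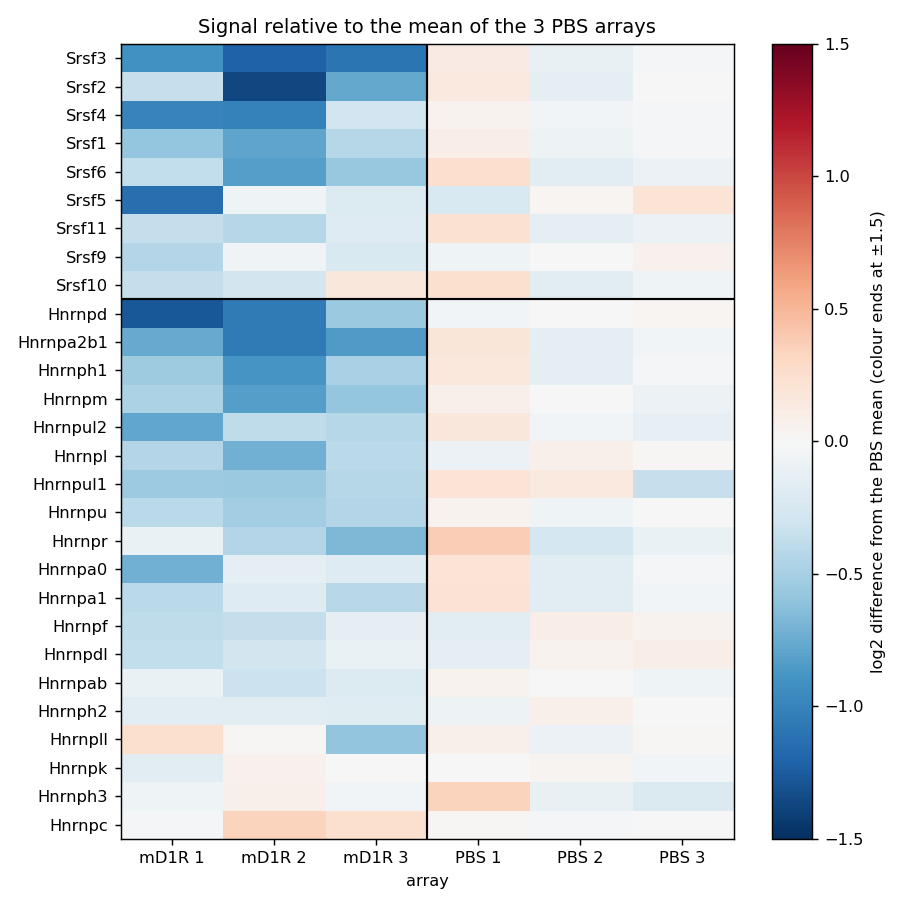
Log2 signal of each tested gene (rows, Srsf above Hnrnp) in each array (columns, mD1R left of PBS) minus the mean of the 3 PBS arrays. Blue cells lie below that mean, and all 3 mD1R columns are mostly blue, with 25, 21 and 21 of 28 genes below every PBS array, against 33.6%, 33.6% and 30.8% of all genes tested.

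Across arrays, the median of the 28 genes relative to their PBS means was -0.41 in each of mD1R replicates 1, 2 and 3, and 0.09, -0.05 and -0.02 in PBS replicates 1, 2 and 3. Over all genes tested the same median was 0.11, 0.09 and 0.06 in the mD1R arrays. Of the 28 genes, 25, 21 and 21 lay below all PBS arrays in mD1R replicates 1, 2 and 3, against 33.6%, 33.6% and 30.8% of all genes. On the first principal component of all probe sets, which held 56.9% of the variance, mD1R replicate 3 lay at 12.6, between replicates 1 and 2 (108.4 and 93.6) and the PBS arrays (-64.5 to -79.4). Which array was lowest varied by gene, since 11, 13 and 4 of the 28 had their lowest mD1R signal in replicates 1, 2 and 3. The SR genes differed most between mD1R arrays, with medians of -0.43, -0.79 and -0.29, against -0.41, -0.35 and -0.42 for the hnRNP genes.

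A spike-in control added at hybridisation, BioB, divided the arrays into 2 sets that cut across the groups, a split known from earlier work on these data. One set held mD1R replicates 1 and 2 and PBS replicate 1, the other mD1R replicate 3 and PBS replicates 2 and 3. Within these sets the median change of the 28 genes was -0.59 and -0.32, with 26 and 25 genes below 0, and that of all genes was 0.02 and 0.09. Srsf3 changed by -1.19 and -1.04, Hnrnpa2b1 by -1.08 and -0.77, Hnrnpd by -1.12 and -0.58 and Hnrnpm by -0.73 and -0.54. Each of these within-set values rests on a single array of one group and has no test. In limma with the set as a block, 3 of the 28 genes fell, against 7.00% of all genes, and Hnrnpm lost its call (-0.64, adjusted p = 0.0545).

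Most genes were covered by several probe sets, up to 7, so the brightest could be set against the others. Of the 85 tested probe sets of the families, 9 fell past the threshold and 0 rose, against 6.50% of all 27022 probe sets that fell. Besides the brightest probe sets of the 4 genes above, the 9 included a second one of Srsf3 (-1.04 ± 0.24, adjusted p = 0.0326) and 1 each of Srsf2, Srsf6, Hnrnpul2 and Hnrnpdl. The Srsf2 probe set gave 11.32, 12.03 and 12.06 with mD1R and 13.51, 12.88 and 13.16 with PBS, and it fell by 1.38 ± 0.26 (adjusted p = 0.0179). The Srsf6 probe set fell by 1.12 ± 0.28 (adjusted p = 0.0386), the Hnrnpul2 one by 0.97 ± 0.22 (0.0273) and the Hnrnpdl one by 0.82 ± 0.22 (0.0452). In Srsf6 all 4 probe sets had every mD1R array below every PBS array.

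**Figure D4:**
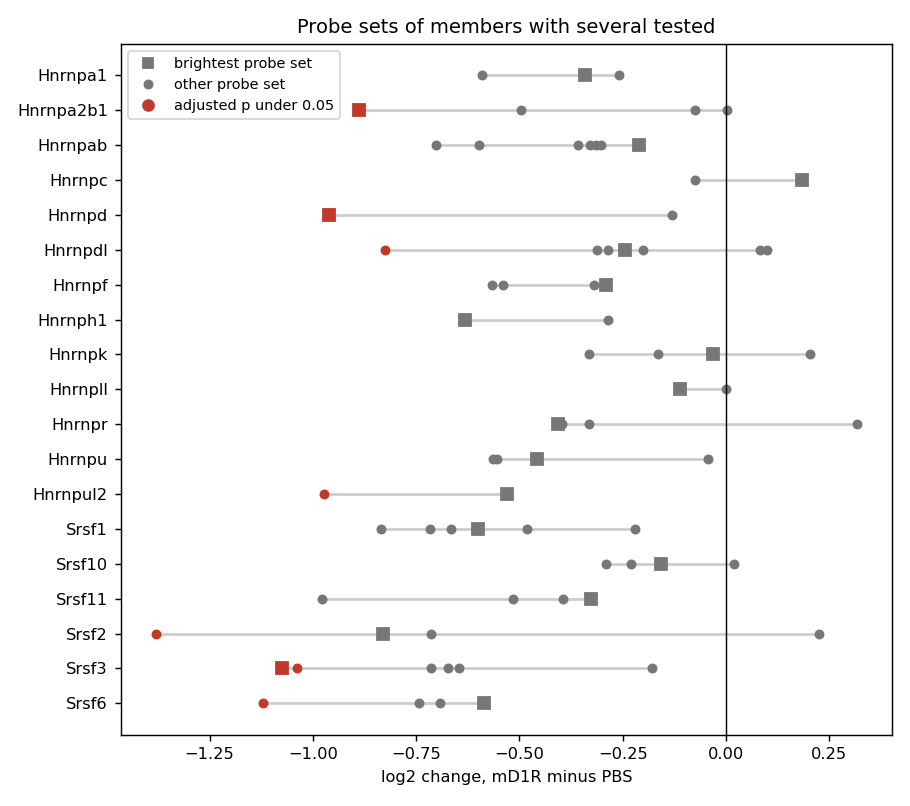
Log2 change, mD1R minus PBS (x axis), of every tested probe set of the 19 genes with several, with squares for the brightest probe set of a gene and circles for the others. Red marks adjusted p under 0.05. In Hnrnpa2b1 the changes run from -0.89 to 0.00 and in Srsf2 from -1.38 to 0.23.

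Whether probe sets of one gene changed unequally was tested on their difference within each array, which is free of the scaling between arrays. Of 57 such pairs in 19 genes, 1 passed, against 0.867% of 10262 pairs over all genes. At an unadjusted p of 0.05, 10 of the 57 passed (17.5%), against 15.0% of all pairs, so the families stood near the background in that count. The pair that passed was in Hnrnpa2b1, where the second brightest probe set had log2 signals of 13.53, 13.03 and 13.00 with mD1R and of 13.24, 13.34 and 13.21 with PBS. It changed by -0.08 ± 0.19, which is 0.81 ± 0.13 above the change of the brightest probe set (adjusted p = 0.0292). The other Hnrnpa2b1 probe sets changed by 0.00 ± 0.34 and -0.50 ± 0.19, and in neither did the difference from the brightest pass (adjusted p = 0.139 and 0.153).

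Hnrnpa2b1 thus passed as lower in 1 of its 4 probe sets. The pair no longer passed when any PBS array, mD1R replicate 1 or mD1R replicate 2 was left out. In those limma fits 0 pairs of the families passed the threshold, and between 8 and 15 of the 57 had an unadjusted p under 0.05. Over all genes, 3, 4 and 5 pairs passed without PBS replicates 1, 2 and 3. Without mD1R replicates 1 and 2 the numbers were 7 and 3, against 89 with all arrays. In Hnrnpd the second probe set changed by -0.13 ± 0.25 and in Srsf3 the least changed of 6 by -0.18 ± 0.27, but the differences from the brightest did not pass (adjusted p = 0.116 and 0.114). Where the probe sets lie along each transcript is not known from the files. The 3′ minus 5′ control signal for beta-actin, a measure of RNA integrity and labelling, was 0.46, 0.37 and 0.42 (log2) with mD1R and 0.26, 0.27 and 0.20 with PBS, without overlap. The same control for Gapdh was -0.41, -0.34 and -0.26 with mD1R and -0.48, -0.38 and -0.33 with PBS, with overlap. Their part in these results was not tested.

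The kinases that phosphorylate SR proteins, the other splicing regulators and the spliceosome itself were set beside the families. Of 137 such genes 121 were tested, and 14 fell (11.6%) and 0 rose, against 7.09% and 8.49% of all genes. Their median change was -0.28, and 102 estimates lay below 0 (84.3%), against 44.5% of all genes. Among 12 kinases, phosphatases and the importer of SR proteins, 2 fell (16.7%), both of them kinases. Clk1, a nuclear kinase of SR proteins, averaged 11.61 ± 0.40 (log2 signal, SD) with mD1R and 12.73 ± 0.09 with PBS and fell by 1.12 ± 0.22 (adjusted p = 0.0207). Srpk2, which phosphorylates SR proteins in the cytoplasm, averaged 10.85 ± 0.31 with mD1R and 11.80 ± 0.11 with PBS and fell by 0.95 ± 0.20 (adjusted p = 0.0240).

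Among 40 SR-related and other regulators 8 fell (20%, against 7.09% of all genes) and 0 rose, with a median of -0.33. Tra2a, an SR-like protein that binds GAA-rich enhancers, fell by 0.96 ± 0.21, Celf2 by 0.76 ± 0.18, Tia1, which helps U1 snRNP to bind weak sites, by 0.81 ± 0.20, and the polypyrimidine tract protein gene Ptbp2 by 0.79 ± 0.19 (adjusted p between 0.0265 and 0.0356). The others that fell were Sfpq, Rbm39, Raly and Tra2b. Of 23 U1, U2 and 3′ splice site factors 1 fell (4.35%, below the share over all genes), with a median of -0.27. It was Sf3b2 of the U2 snRNP (-0.63 ± 0.17, adjusted p = 0.0485). Of 36 tri-snRNP and catalytic factors 3 fell (8.33%, near the share over all genes), with a median of -0.28. They were Lsm8 (-0.74 ± 0.17), Lsm6 (-0.79 ± 0.19) and the helicase gene Dhx16 (-0.75 ± 0.20). Lsm6 and Lsm8 encode parts of the ring on U6 RNA. Lsm7, on the same list, had an estimate above 0 (0.65 ± 0.25) that did not pass (adjusted p = 0.133). In this list 26 estimates lay below 0 and 10 above. None of 10 tested nonsense-mediated decay and exon junction factors passed in limma, where 1 was lower at an unadjusted p of 0.05, and their median was -0.15. The 14 that fell became 0 without any one PBS array or without mD1R replicate 2, 7 without mD1R replicate 1 and 18 without mD1R replicate 3, and 8 with arrays centred on their medians, where 6.58% of all genes fell. Over all genes, 2.45%, 0.988% and 0% were lower without PBS replicates 1, 2 and 3. Without mD1R replicates 1, 2 and 3 the shares over all genes were 4.66%, 1.69% and 11.6%. In the limma fits with 0 calls, 22 to 27 of the 121 were lower at an unadjusted p of 0.05.

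**Figure D5:**
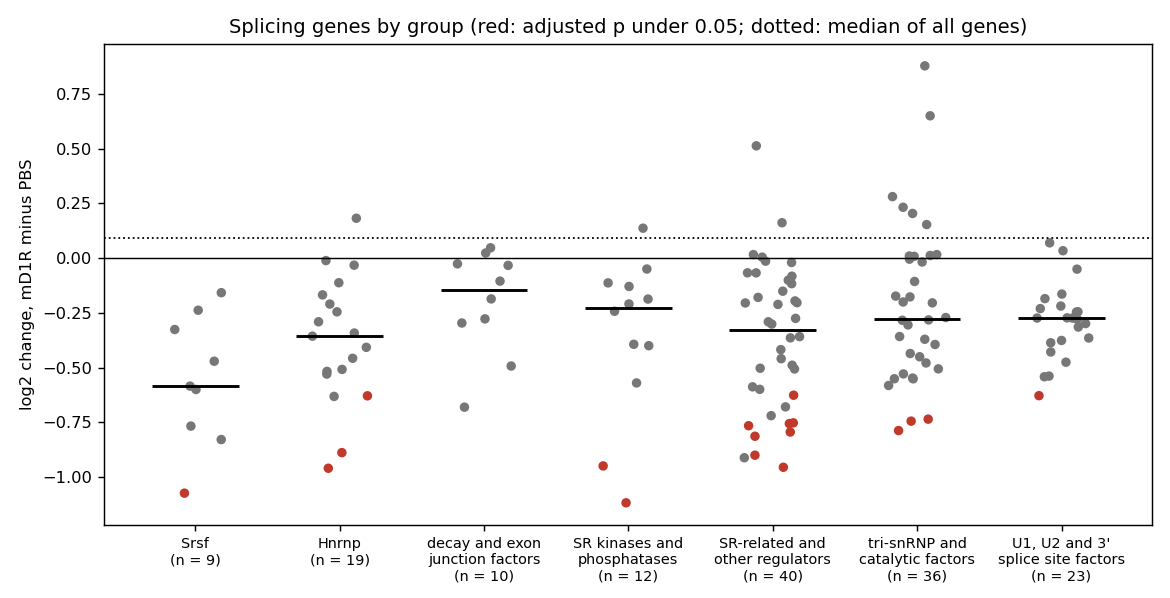
Log2 change, mD1R minus PBS (y axis), of each tested gene of the Srsf and Hnrnp families and of 5 other groups of splicing genes, with the median of each group as a bar. Red points passed adjusted p 0.05, and all of them lie below 0. The medians run from -0.58 for Srsf to -0.15 for decay and exon junction factors, and the dotted line marks the median of all genes, 0.09.

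The sorted cells and what else they held were checked on marker genes. Kit had log2 signals of 11.37, 11.13 and 9.58 with mD1R and of 9.97, 8.85 and 9.21 with PBS, and Ptprc lay between 13.29 and 14.14 in all arrays. Itgam, listed as a lineage antigen, had log2 signals of 11.56, 11.94 and 11.72 with mD1R and of 11.66, 12.24 and 12.31 with PBS. Its RNA was thus bright in every array of these Lin- cells, and surface protein was not measured here. Kit (adjusted p = 0.109), Ptprc, Cd3e, Cd8a and Itgam did not pass, Cd4 was below the filter, and Ly6a (Sca-1) and Ly6g are not analysed here. Over all genes tested, 8.49% rose and 7.09% fell. Of 14 tested mast cell and basophil markers 12 rose (85.7%) and 0 fell. The summed linear signal of this list was 72139 to 101744 with mD1R and 15134 to 23979 with PBS. Such sums, here and below, include listed markers under the filter. They cover 15 mast cell and basophil, 8 endothelial, 8 erythroid and 11 lymphoid markers. Monocyte and macrophage markers rose in 6 of 9 (113627 to 193483 with mD1R, 59217 to 74935 with PBS). Mouse endothelial markers rose in 1 of 4 (2119 to 5084, against 896.2 to 1908). Lymphoid markers fell in 7 of 10, while their summed signal was 6977 to 19092 with mD1R and 5604 to 10872 with PBS. The lymphoid marker that rose was Il7r, with a log2 signal of 13.21 ± 0.86 with mD1R and 10.98 ± 0.57 with PBS (SD). Of 11 neutrophil markers 1 fell (9.09%, near the share over all genes), with sums of 56368 to 324148, against 262068 to 328232. Of 5 erythroid markers 1 fell (484.9 to 969.6, against 1040 to 4118). Of these markers Rag1 was the only one listed at 0 in any array. The part of these shifts in the splicing gene results was not tested.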

How the data were processed

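The authors deposited log2 signals of 45101 probe sets in 6 Affymetrix arrays, made with MAS5 per the submitters' processing notes. Its version and settings are not given in the sources used here. On the linear scale each array had a trimmed mean of 500.0 (2% at each end), and 239 to 422 values per array were listed at 0. Detection calls were not used, so dim signals cannot be told from background.

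Groups were compared on the deposited log2 values with limma 3.58.1 in R 4.3.3 (lmFit, eBayes with a variance trend, two-sided). Probe sets below the 40th percentile of mean log2 signal (5.27) were left out, which kept 27022, and p-values were adjusted over all of them by Benjamini-Hochberg at a threshold of 0.05. Genes were named from the platform annotation where it gave 1 symbol. The same model was fitted to differences between probe sets of a gene. The scripts were tested on simulated data. The number of arrays, 3 per group, limits precision. The p-values rest on the spread between arrays of a group, moderated over all probe sets. That spread cannot be split into culture and array handling, such as the BioB sets.

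Members, lists and alternatives were chosen with earlier results of these data known. The genes named were all Srsf and Hnrnp genes, the 4 strongest calls at most from each splicing list, and the gate antigens. Sfpq, Rbm39, Raly, Tra2b, Lsm7 and Il7r were named after their values were seen. The signals by array of Srsf4, Srsf5, Srsf12, Hnrnph1, Hnrnpu and Hnrnpc were given beyond those planned.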

Additional observations from a re-analysis of the deposited data

How the results depend on the processing

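The 28 tested genes gave 4 calls as lower, and 7 when the filter was set at the 60th percentile (where 9.70% of all genes were lower), 2 with no variance trend (4.27%), 11 with array weights (13.2%), 7 with the most variable probe set of each gene (7.52%) and 0 at an adjusted p of 0.01 (0.211%), where 13 were lower at an unadjusted p of 0.05. Leaving out 1 array gave 0 to 8. No gene of the families was called higher in any of the 19 alternatives run. The median change lay between -0.59 and -0.32 in all alternatives, at -0.54 with the most variable probe set, at -0.59 and -0.32 within the BioB sets (values added after the data were seen) and between -0.45 and -0.36 with 1 array left out. Hnrnpk lay between -0.082 and 0.029 with 1 array left out and at -0.33 with its most variable probe set (adjusted p = 0.190). With the mean of all probe sets of a gene, Hnrnpa2b1 (-0.36, adjusted p = 0.290), Hnrnpd (-0.55, 0.123) and Srsf3 (-0.72, 0.0941) lost their calls, while Srsf6 and Hnrnpul2 passed. Hnrnpm kept its call, but it has only 1 tested probe set, so its change could not move in this setting. With the most variable probe set Srsf3 lost its call (-0.67, adjusted p = 0.268), while Srsf2, Srsf6, Hnrnpul2 and Hnrnpdl passed. The variability that chose these probe sets includes the difference between the groups. This setting therefore favours changed probe sets, and its calls and median are no independent check. Srsf3 kept its call in 14 of 19 alternatives, Hnrnpa2b1 in 13, Hnrnpd in 12 and Hnrnpm in 9. For Hnrnpm the 9 include the mean and the most variable probe set, which left its change as it was.

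Companion splicing genes called lower numbered 8 with arrays centred on their medians (where 6.58% of all genes were lower), 8 with no filter (4.08%) and 1 with no variance trend (4.27%). They numbered 25 with array weights (13.2%), 0 at adjusted p 0.01 (0.211%) and 0 to 18 with 1 array left out (0% to 11.6%). Those called higher numbered 2 with array weights (1907 over all genes), 1 with the BioB set as a block (1120) and 0 to 2 with 1 array left out (0 to 1563). Probe set pairs called in the families numbered 0 with no variance trend, 2 with array weights, 0 with the BioB set as a block, 0 at adjusted p 0.01 and 0 to 1 with 1 array left out. Over all genes the pairs called in these settings numbered 6, 250, 78, 3 and 3 to 202, against 89 as reported. With a replicate block 9 genes of the families were called lower (9.47% of all genes). The deviations of same-numbered arrays correlated at 0.31, 0.03 and 0.13. Arrays with different numbers were not compared, so these values cannot show or exclude a pairing, and the labels name none. The cause of these shifts was not tested.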
